A study of Vitis vinifera with 15 samples.

Results

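Leaves of the grapevine cultivar "Gaglioppo" grafted on Kober 5BB (GAG-KOB) were compared with leaves of the same cultivar grafted on 1103 Paulsen (GAG-1103P). Members were chosen by the sample labels alone, as the 3 libraries with the rootstock Kober 5BB and the 3 with the rootstock 1103 Paulsen, which makes 6 of the 15 RNA-Seq libraries of the series. Kober 5BB is a hybrid of V. riparia and V. berlandieri, and 1103 Paulsen is a hybrid of V. rupestris and V. berlandieri that the study used as its reference rootstock. The scion was 1 clone of "Gaglioppo" (Librandi CVT 80) on every rootstock, so that the groups differ in the rootstock and in no allele, agent or time that the labels give. All vines were 3 years old and stood in 1 irrigated vineyard in Southern Italy. Each library (A, B or C) held polyA RNA of fully expanded, non-senescing leaves, pooled from 3 vines at the end of August. The vines of a combination shared a block of the vineyard, and thus the effects of rootstock and block cannot be told apart. The other 9 libraries, of leaves on 41 B Mgt (GAG-41B), 17-37 Mgt (GAG-17-37) and 3309 Couderc (GAG-3309C), are used below only to show where GAG-KOB differed from the rest.

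A grafted vine is made of a scion, which forms the leaves and fruit, and of a rootstock from another Vitis genotype, which forms the root. The 2 parts exchange water, nitrogen, sugars and hormones through xylem and phloem, and the leaf transcriptome of a scion is known to vary with its root. In grapevine leaves, stilbenes such as resveratrol are made from phenylalanine through the phenylpropanoid pathway and act as antimicrobial compounds, while abscisic acid (ABA) closes stomata in drought.

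The deposited unit was FPKM, in which the fragments of each of 29970 genes are scaled by transcript length and library size. The values were analyzed with limma on log2(FPKM + 0.1), a scale that understates the fold change (log2FC, GAG-KOB over GAG-1103P) of weakly expressed genes. Differentially expressed genes (DEGs) were called at an adjusted p of at most 0.05, over 21364 genes whose mean was 0.1 FPKM or more. Between 20684 and 20718 genes reached 0.1 FPKM in the GAG-KOB libraries and between 20321 and 20382 in the GAG-1103P libraries. The leaf genes PsbO of photosystem II (Vv00s0207g00210) and PsaF of photosystem I (Vv00s0125g00280) had 511 FPKM or more in all 6 libraries, and PsbO was lower in GAG-KOB (log2FC -0.45, adjusted p = 8.67e-05, limma). Several other entries annotated as photosynthesis genes were low in level in these libraries. Whether these entries stand for the main copies expressed in a leaf was not tested. The LHCB3 genes Vv00s0181g00180 and Vv00s0181g00200 had at most 0.964 FPKM, and psbC (Vv00s0187g00140) was listed at 0. The photosystem II protein D2 (Vv00s0275g00010) had 14.5 to 40.7 FPKM. In bulk leaves, fewer cells of a type and less RNA per cell cannot be told apart. Replicates B and C lay closer to each other than to A in all 5 combinations. For genes between 100 and 1000 FPKM, the spread of the log2 difference (scaled median absolute deviation) was 0.063 between GAG-KOB B and C, against 0.18 and 0.19 between A and the others. In GAG-1103P it was 0.072 between B and C, against 0.17 and 0.18. Above 1000 FPKM, the spread between B and C was 0.064 in GAG-KOB and 0.095 in GAG-1103P, and in GAG-41B it was 0.038, against 0.054 between 100 and 1000 FPKM. Replicate A was the highest of the 3 libraries in every combination for 2689 genes and the lowest for 2090. B and C were kept as 2 replicates, as they are labelled. Whether they share a preparation was not tested, and p-values measure only the spread between these libraries. With B and C averaged and counted as 1, an alternative chosen after seeing the data, 8799 genes were DEGs in place of 11242.

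The housekeeping genes of the study differed little. VvACT1 (Vv04s0044g00580, actin) had 858, 842 and 828 FPKM in GAG-KOB, against 1007, 936 and 921 FPKM in GAG-1103P, a log2FC of -0.18 ± 0.048 (SE, adjusted p = 0.00675, limma) that missed the limit with B and C averaged (adjusted p = 0.0691). VvUBI (Vv16s0098g01190, ubiquitin) had 926, 987 and 1042 FPKM in GAG-KOB, against 1020, 1095 and 1079 FPKM in GAG-1103P, and was not called (adjusted p = 0.127, limma). It was called lower after scaling to the same total (adjusted p = 0.00566), after quantile normalization (0.00087) and with a replicate block (0.049).

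Of the genes tested, 5750 were higher in GAG-KOB (26.9%) and 5492 were lower (25.7%). Which direction held more DEGs turned with the scaling, since 5040 were higher and 6362 lower after scaling to the same total, 5064 and 6406 after quantile normalization, and 6158 and 4939 after scaling to the same median. The changes of at least 4-fold were less evenly split, with 640 genes higher (3.0%) and 106 lower (0.496%). With 1 FPKM added to each value in place of 0.1, the 4-fold DEGs were 306 higher and 38 lower. Functional annotation was at hand for genes that the study selected on the same libraries, and therefore no count over this selection is independent evidence of a direction. Of 2692 such genes tested, 1591 were higher (59.1%) and 747 lower (27.7%), and their median log2FC was 1.07, against 0.00 over all genes tested. The 18672 genes outside it held a further 127 genes at least 4-fold higher and 44 at least 4-fold lower. Of the 2692 genes, 513 were at least 4-fold higher and 62 at least 4-fold lower, a larger part than over all genes tested. The gene lists below come from this annotation and share its limits, so that their counts are to be read beside these. Members given with a log2FC alone were named after their values were seen, to complete counts of up to 5.

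**Figure D1:**
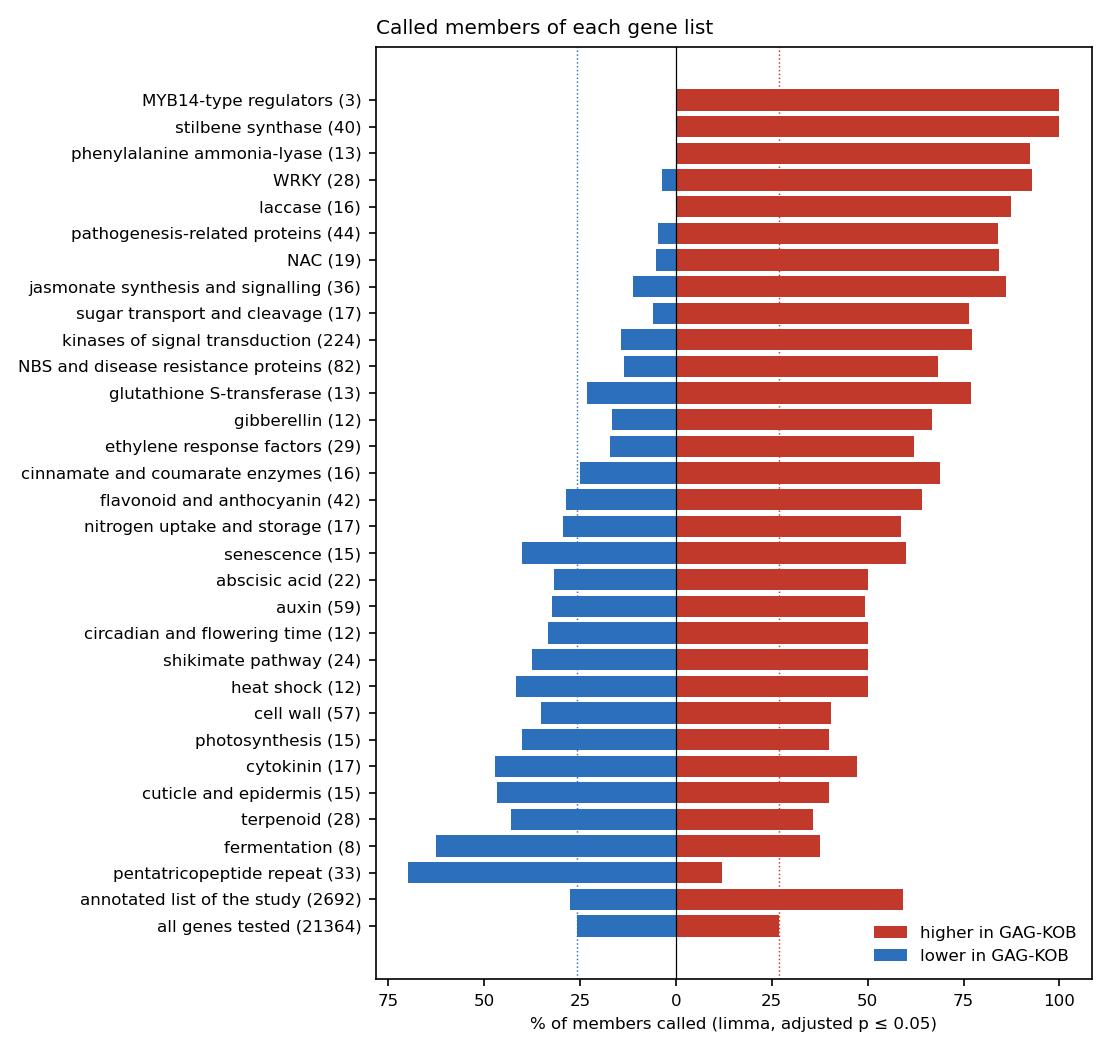
Share of the members of each gene list (in % of the members tested, number in brackets) that were called higher in GAG-KOB (red, to the right) or lower (blue, to the left) than in GAG-1103P, with the annotated list of the study and all genes tested at the bottom. Dotted lines mark 26.9% and 25.7%, the shares over all genes. All 40 stilbene synthases lie on the right, while 23 of 33 pentatricopeptide repeat genes lie on the left.

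Genes of phenylpropanoid synthesis were mostly higher. All 40 stilbene synthases (STS), the enzymes that make resveratrol, were higher in GAG-KOB, and 39 of them by 4-fold or more. Their median log2FC was 3.65, with a range of 1.24 (Vv15s0021g02170, annotated as chalcone and stilbene synthase and outside the STS clusters) to 4.24. Their FPKM added up to 5762, 5606 and 5636 in the GAG-KOB libraries, against 418, 381 and 382 in the GAG-1103P libraries, a ratio of 14.4. The libraries of the 2 combinations were far apart. STS copies are nearly identical in sequence and the counting could split reads among them, so that single members are less certain than the family sum.

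The member annotated as resveratrol synthase (Vv16s0100g01070) had the largest log2FC of the family, with 22.9, 21.4 and 22.2 FPKM in GAG-KOB, against 1.21, 1.477 and 0.697 FPKM in GAG-1103P (log2FC 4.24 ± 0.18, adjusted p = 9.36e-10, limma). VvSTS48 (Vv16s0100g01200) followed closely. It had 109, 110 and 107 FPKM in GAG-KOB, against 5.89, 6.95 and 5.72 FPKM in GAG-1103P (log2FC 4.12 ± 0.069, adjusted p = 4.35e-13, limma). VvSTS16 (Vv16s0100g00920), of another sub-group of the family, had 43.2, 44.3 and 39.3 FPKM in GAG-KOB, against 3.06, 3.30 and 3.53 FPKM in GAG-1103P (log2FC 3.64 ± 0.068, adjusted p = 8.47e-13, limma). A single member, annotated as stilbene synthase 3 (Vv16s0100g00950), made up about as much of the family sum as all others together. It had 2882, 2906 and 2910 FPKM in GAG-KOB, against 181, 169 and 167 FPKM in GAG-1103P. No library of GAG-1103P came near those of GAG-KOB for any of these 4 genes.

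The steps before STS were higher too. Phenylalanine ammonia-lyase (PAL) is the entry enzyme of the pathway, and 12 of its 13 members were higher, 11 of them at least 4-fold, while none was lower. The member not called was Vv11s0016g01640 (log2FC 0.79). Summed over the 13 members, PAL had 220, 236 and 222 FPKM in GAG-KOB, against 26.3, 29.5 and 28.2 FPKM in GAG-1103P, a ratio of 8.06. The largest increase was in Vv16s0039g01170, with 12.1, 12.7 and 11.9 FPKM in GAG-KOB, against 0.748, 1.18 and 1.07 FPKM in GAG-1103P (log2FC 3.51 ± 0.14, adjusted p = 4.80e-10, limma). Of 16 cinnamate and coumarate enzymes, 11 were higher and 4 lower. Cinnamate 4-hydroxylase (C4H, Vv11s0065g00350), the step after PAL, had 309, 309 and 296 FPKM in GAG-KOB, against 43.5, 45.6 and 46.9 FPKM in GAG-1103P (log2FC 2.75 ± 0.12, adjusted p = 7.46e-10, limma). A transferase of the same list, annotated as anthranilate N-hydroxycinnamoyl/benzoyltransferase (Vv11s0037g00590), went the other way with 7.95, 8.88 and 9.88 FPKM in GAG-KOB, against 18.3, 24.7 and 24.9 FPKM in GAG-1103P. Another 2 transferases of this annotation (Vv11s0037g00580, log2FC -1.20, and Vv13s0067g01410, -0.88) and a cinnamoyl-CoA reductase (Vv16s0039g01670, -0.97), an enzyme on the way to lignin, were also lower.

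The shikimate pathway, which supplies the aromatic amino acids, was mixed, with 12 of 24 members higher and 9 lower. Its largest increase was the beta subunit of tryptophan synthase (Vv10s0116g00710), with 3.08, 3.55 and 3.10 FPKM in GAG-KOB, against 0.278, 0.447 and 0.404 FPKM in GAG-1103P. Its largest decrease was arogenate dehydrogenase (Vv13s0067g02120), which leads to tyrosine, with 8.10, 8.89 and 8.78 FPKM in GAG-KOB, against 25.8, 30.4 and 27.1 FPKM in GAG-1103P (log2FC -1.68 ± 0.081, adjusted p = 2.71e-09, limma). A transcription factor named MYB14 is known to activate STS promoters in grapevine, but the annotation does not show which gene encodes it. All 3 genes annotated as MYB14 were higher (log2FC 1.15 for Vv07s0005g03340 and 1.13 for Vv12s0134g00490). The most changed one (Vv05s0049g01020) had 126, 144 and 151 FPKM in GAG-KOB, against 37.9, 41.0 and 44.2 FPKM in GAG-1103P (log2FC 1.77 ± 0.082, adjusted p = 2.02e-09, limma).

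**Figure D2:**
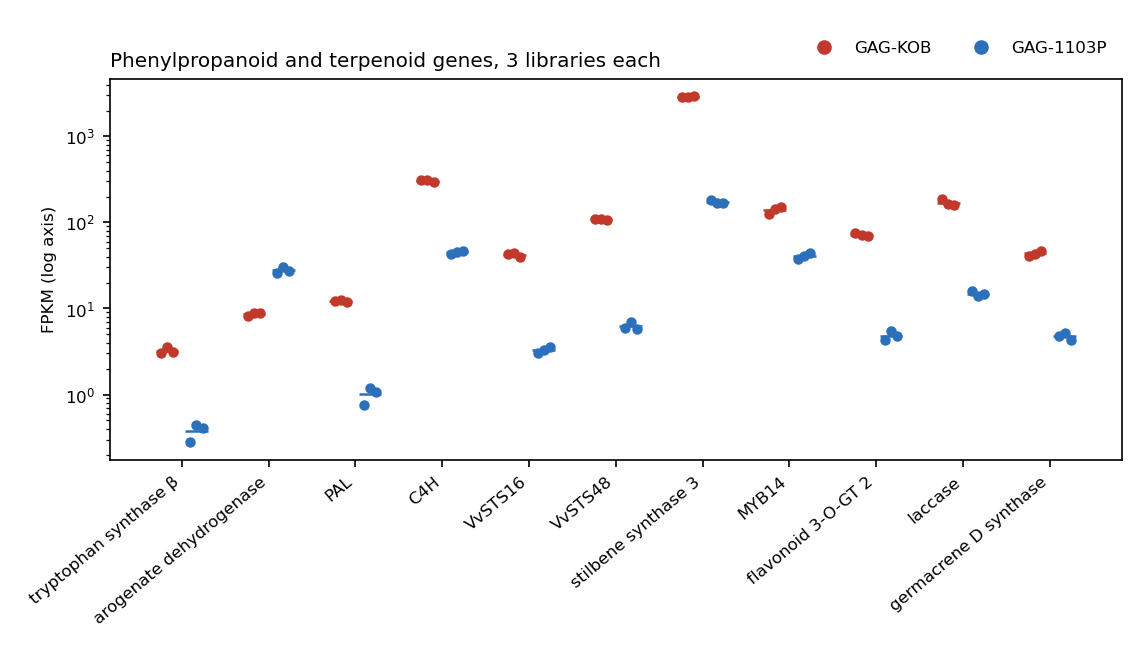
FPKM (log axis) of 11 genes in the 3 GAG-KOB libraries (red) and the 3 GAG-1103P libraries (blue), with a line at each mean. Most of these genes were chosen for a lack of overlap between the 2 combinations, so that its absence here is no result. Of all 21364 genes tested, 5628 were called higher and 5393 called lower without overlap. Only arogenate dehydrogenase is lower in GAG-KOB (8.10 to 8.89 FPKM, against 25.8 to 30.4 FPKM).

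Among 42 flavonoid and anthocyanin genes, 27 were higher (64.3%), of which 12 by 4-fold or more, and 12 were lower (28.6%). These shares lay near the 59.1% and 27.7% over the annotated genes as a whole. UDP-glucose flavonoid 3-O-glucosyltransferase 2 (Vv03s0017g02120), which adds a sugar to flavonoids, had 75.01, 71.8 and 70.3 FPKM in GAG-KOB, against 4.34, 5.43 and 4.74 FPKM in GAG-1103P (log2FC 3.88 ± 0.078, adjusted p = 1.35e-12, limma). A second glucosyltransferase of this list (Vv18s0041g00930) was lower, with 2.95, 3.11 and 2.60 FPKM in GAG-KOB, against 10.6, 8.82 and 9.80 FPKM in GAG-1103P. Laccases, which oxidize phenolic compounds, had 14 of 16 members higher and none lower. The laccase Vv18s0117g00550 alone had 187, 162 and 159 FPKM in GAG-KOB, against 15.8, 13.9 and 14.6 FPKM in GAG-1103P (log2FC 3.51 ± 0.081, adjusted p = 3.40e-12, limma). Terpenoid genes did not move in 1 direction, since 10 of 28 were higher and 12 lower. Germacrene D synthase (Vv18s0001g04280), which makes a volatile sesquiterpene, had 41.3, 43.3 and 46.9 FPKM in GAG-KOB, against 4.75, 5.16 and 4.35 FPKM in GAG-1103P (log2FC 3.18 ± 0.068, adjusted p = 2.04e-12, limma). The cytochrome P450 CYP72A1 (Vv13s0067g00110) was lower, with 4.17, 4.43 and 4.28 FPKM in GAG-KOB, against 13.8, 15.8 and 16.3 FPKM in GAG-1103P.

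Glutathione S-transferases (GST), which conjugate reactive compounds with glutathione, had 10 of 13 members higher and 3 lower. Genes under the same annotation, GSTU7, went both ways. Vv08s0040g00920 had 15.2, 17.9 and 17.2 FPKM in GAG-KOB, against 0.493, 0.625 and 0.764 FPKM in GAG-1103P (log2FC 4.55 ± 0.16, adjusted p = 1.64e-10, limma). The more abundant Vv16s0039g01070 had 1974, 2196 and 2221 FPKM in GAG-KOB, against 397, 457 and 425 FPKM in GAG-1103P (log2FC 2.32 ± 0.079, adjusted p = 1.03e-10, limma). In contrast, Vv06s0004g05680 was lower, with 270, 291 and 312 FPKM in GAG-KOB, against 876, 977 and 873 FPKM in GAG-1103P (log2FC -1.64 ± 0.074, adjusted p = 1.55e-09, limma). GSTU19 (Vv19s0093g00310, log2FC -0.67) and GSTZ1 (Vv12s0035g02100, log2FC -0.88) were lower as well.

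Pathogenesis-related (PR) proteins, which are secreted or vacuolar defence proteins such as chitinases and thaumatins, were mostly higher. Of 44 members 37 were higher, 18 of them at least 4-fold, while a chitinase III (Vv16s0050g02210, log2FC -1.94) and the thaumatin SCUTL1 (Vv04s0023g03540, log2FC -0.53) were lower. Their FPKM added up to 13443, 13854 and 14067 in GAG-KOB, against 3364, 3426 and 3271 in GAG-1103P, a ratio of 4.11. Among annotated genes with a log2FC of at least 1, PR10 (Vv05s0077g01570) had the largest increase in mean FPKM. This intracellular protein of the list had 4250, 4355 and 4544 FPKM in GAG-KOB, against 1122, 1214 and 1137 FPKM in GAG-1103P (log2FC 1.92 ± 0.063, adjusted p = 7.96e-11, limma). PR1 (Vv03s0088g00700), a marker of salicylic acid responses in Arabidopsis, had 16.8, 23.2 and 22.9 FPKM in GAG-KOB, against 0.715, 0.463 and 0.826 FPKM in GAG-1103P (log2FC 4.79 ± 0.21, adjusted p = 1.29e-09, limma). The thaumatin Vv02s0025g04230 had 40.1, 44.0 and 42.5 FPKM in GAG-KOB, against 1.604, 1.90 and 1.16 FPKM in GAG-1103P (log2FC 4.70 ± 0.14, adjusted p = 3.44e-11, limma). PR1 and this thaumatin had the 2 largest log2FC among the annotated genes of at least 1 FPKM. A late embryogenesis abundant protein (Vv00s0301g00150) was also among the 4 largest, at a low level, with 2.70, 2.44 and 3.13 FPKM in GAG-KOB, against 0.0396, 0.0409 and 0 FPKM in GAG-1103P.

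**Figure D3:**
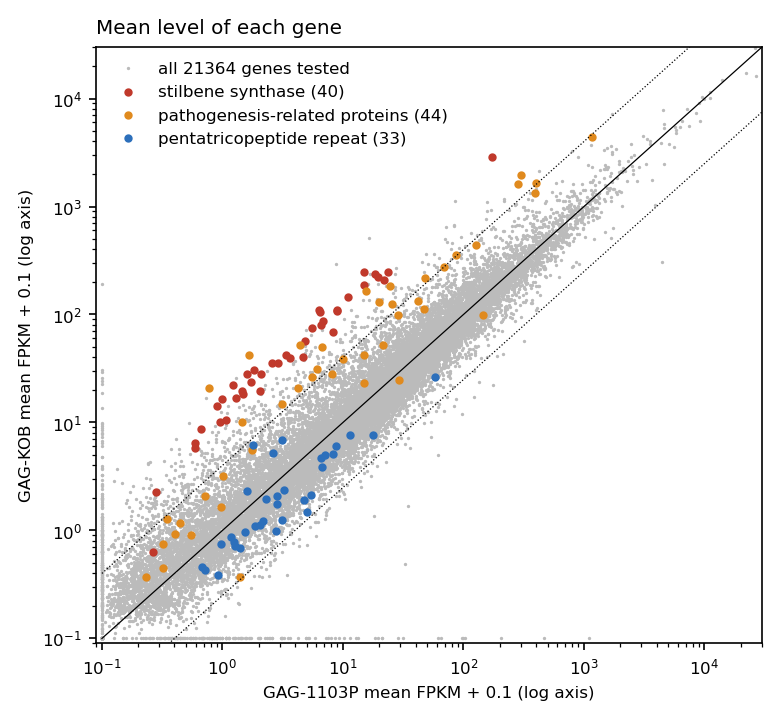
Mean FPKM + 0.1 (log axes) of the 21364 genes tested in GAG-KOB (vertical) and GAG-1103P (horizontal), with equality as a solid line and a 4-fold difference as dotted lines. Stilbene synthases (40, red) lie above the upper dotted line but for 1, pathogenesis-related proteins (44, orange) lie mostly above the solid line, and pentatricopeptide repeat genes (33, blue) mostly below it.

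Genes for pathogen perception and signalling were mostly higher, at lower expression levels, as were the annotated genes as a whole (59.1% higher, 27.7% lower, median log2FC 1.07). Of 82 NBS and disease resistance proteins, which are intracellular immune receptors, 56 were higher (68.3%) and 11 lower (13.4%). Their median log2FC was 1.17, near that of the annotated genes. The receptor gene Vv01s0011g00990 had 2.40, 2.55 and 1.94 FPKM in GAG-KOB, against 0.260, 0.116 and 0.269 FPKM in GAG-1103P (log2FC 2.96 ± 0.20, adjusted p = 6.26e-08, limma). Its counterpart among the decreases, annotated as RPS2 (Vv19s0027g01690), had 2.02, 0 and 5.90 FPKM in GAG-KOB, against 6.87, 10.3 and 8.30 FPKM in GAG-1103P. The GAG-KOB libraries of this gene scattered widely, and its call (adjusted p = 0.0297, limma) was lost without GAG-1103P replicate A (0.0538), B (0.0785) or C (0.0659) and in a fit of the 6 libraries alone (0.159). Another receptor gene (Vv00s0276g00060, CC-NBS-LRR class) was listed at 0 in all 3 GAG-KOB libraries and had 17.3, 41.9 and 26.9 FPKM in GAG-1103P. Of 224 protein kinases of signal transduction, 173 were higher and 32 lower, with a median log2FC of 1.37. The largest increase was a cysteine-rich receptor-like kinase (Vv04s0079g00020) with 1.79, 1.54 and 1.72 FPKM in GAG-KOB, against 0.0237, 0.0484 and 0.104 FPKM in GAG-1103P. The largest decrease was a receptor kinase (Vv05s0062g01070) with 4.15, 3.79 and 3.95 FPKM in GAG-KOB, against 14.7, 14.8 and 15.7 FPKM in GAG-1103P.

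Among transcription factors, 26 of 28 WRKY genes were higher, with a median log2FC of 1.83, and WRKY21 (Vv02s0154g00210, log2FC -0.80) was lower. WRKY proteins bind W-box promoters and regulate many stress responses. VvWRKY40 (Vv09s0018g00240) had 451, 507 and 500 FPKM in GAG-KOB, against 128, 143 and 146 FPKM in GAG-1103P (log2FC 1.81 ± 0.082, adjusted p = 1.71e-09, limma). VvWRKY18 (Vv04s0008g05760) changed less, with 338, 352 and 359 FPKM in GAG-KOB, against 247, 265 and 248 FPKM in GAG-1103P (log2FC 0.47 ± 0.050, adjusted p = 5.06e-06, limma). The largest increase of the list was WRKY75 (Vv14s0068g01770), with 5.17, 6.85 and 7.44 FPKM in GAG-KOB, against 1.06, 1.002 and 0.268 FPKM in GAG-1103P.

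NAC genes, another plant-specific family, had 16 of 19 members higher, and NAC22 (Vv19s0027g00230, log2FC -0.79) was lower. VvNAC17 (Vv19s0014g03290) had 590, 561 and 558 FPKM in GAG-KOB, against 434, 414 and 406 FPKM in GAG-1103P (log2FC 0.45 ± 0.041, adjusted p = 1.10e-06, limma). VvNAC39 (Vv07s0031g02610) had 816, 787 and 792 FPKM in GAG-KOB, against 669, 619 and 632 FPKM in GAG-1103P (log2FC 0.32 ± 0.054, adjusted p = 0.000261, limma). The call of VvNAC39 was lost after quantile normalization (adjusted p = 0.0789). NAC90 (Vv08s0007g02940) was far lower in level and changed more, with 2.07, 1.45 and 3.06 FPKM in GAG-KOB, against 0.146, 0.383 and 0.0819 FPKM in GAG-1103P. Of 29 ethylene response factors, 18 were higher and 5 lower, among them ERF114 (Vv01s0150g00120, log2FC -1.11), 2 ERF105 genes (Vv16s0013g01070, -1.09, and Vv16s0013g01090, -0.46) and CBF4 (Vv16s0100g00380, -0.80). ERF098 (Vv07s0005g03220) had 70.0, 98.8 and 105 FPKM in GAG-KOB, against 8.03, 10.3 and 12.1 FPKM in GAG-1103P (log2FC 3.15 ± 0.22, adjusted p = 1.09e-07, limma). A factor of the DREB A-5 group (Vv18s0001g03240) had 1.26, 0.171 and 0.687 FPKM in GAG-KOB, against 2.64, 2.06 and 1.93 FPKM in GAG-1103P, and its call (adjusted p = 0.0117, limma) was lost in a fit of the 6 libraries alone (0.0535) and with B and C averaged (0.0549).

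The hormone lists held both increases and decreases. In the jasmonate list 31 of 36 genes were higher and 4 lower. Its largest increase was the PR1 gene given above, which is a target of defence hormones and not an enzyme of jasmonate synthesis. Its largest decrease was SEN1 (Vv04s0023g03600), a gene induced in the dark in Arabidopsis, with 17.8, 27.3 and 25.5 FPKM in GAG-KOB, against 136, 134 and 136 FPKM in GAG-1103P (log2FC -2.54 ± 0.22, adjusted p = 7.31e-07, limma). The other decreases were alpha-dioxygenase 2 (Vv17s0000g02700, log2FC -1.63), erg-1 (Vv07s0005g00870, -0.44) and the leucine zipper protein HBP-1b (Vv01s0011g03230, -0.64). Allene oxide cyclase (Vv01s0011g03090), a step of jasmonate synthesis, had 39.9, 43.7 and 41.2 FPKM in GAG-KOB, against 5.80, 6.39 and 5.95 FPKM in GAG-1103P (log2FC 2.76 ± 0.12, adjusted p = 1.03e-09, limma).

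In the ABA list 11 of 22 genes were higher and 7 lower. VvNCED (Vv02s0087g00930), which encodes 9-cis-epoxycarotenoid dioxygenase, the rate-limiting enzyme of ABA synthesis, had the largest decrease. It had 14.1, 14.6 and 13.4 FPKM in GAG-KOB, against 90.3, 79.5 and 79.8 FPKM in GAG-1103P (log2FC -2.56 ± 0.11, adjusted p = 1.35e-09, limma). The largest increase of the list was an alternative oxidase (Vv02s0033g01380), a terminal oxidase of mitochondria and not an enzyme of ABA metabolism. It had 168, 192 and 185 FPKM in GAG-KOB, against 21.7, 23.6 and 22.5 FPKM in GAG-1103P (log2FC 3.0 ± 0.060, adjusted p = 1.35e-12, limma).

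Of 59 genes in the auxin list, 29 were higher and 19 lower. Expansin EXPA15 (Vv01s0026g02620), which loosens cell walls, was among the largest decreases of the comparison, with 1.30, 1.42 and 1.999 FPKM in GAG-KOB, against 34.9, 35.5 and 33.5 FPKM in GAG-1103P (log2FC -4.40 ± 0.24, adjusted p = 8.11e-09, limma). A copper amine oxidase of the same list (Vv05s0020g03280), which oxidizes polyamines, was higher, with 39.4, 37.0 and 35.5 FPKM in GAG-KOB, against 3.54, 3.98 and 4.19 FPKM in GAG-1103P. Gibberellin genes had 8 of 12 members higher and 2 lower. GA 20-oxidase 2 (Vv19s0140g00140), an enzyme of gibberellin synthesis, had 10.7, 9.40 and 10 FPKM in GAG-KOB, against 0.907, 1.07 and 0.915 FPKM in GAG-1103P (log2FC 3.25 ± 0.12, adjusted p = 1.85e-10, limma). A second GA 20-oxidase 2 gene (Vv18s0001g06690, log2FC -1.97) and a GASA-like gene (Vv18s0072g01110, log2FC -1.40) were lower.

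Cytokinin genes were evenly split, with 8 of 17 higher and 8 lower. Isopentenyltransferase (Vv05s0020g02630), which starts cytokinin synthesis, was lower, with 0.461, 0.268 and 0.492 FPKM in GAG-KOB, against 2.58, 2.26 and 2.36 FPKM in GAG-1103P (log2FC -2.33 ± 0.33, adjusted p = 5.58e-05, limma). Cytokinin dehydrogenase 5 (Vv18s0001g13200), which degrades cytokinins, was higher, with 1.69, 2.48 and 2.71 FPKM in GAG-KOB, against 0.511, 0.308 and 0.231 FPKM in GAG-1103P (log2FC 2.43 ± 0.27, adjusted p = 8.01e-06, limma). Both genes were expressed at low levels.

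**Figure D4:**
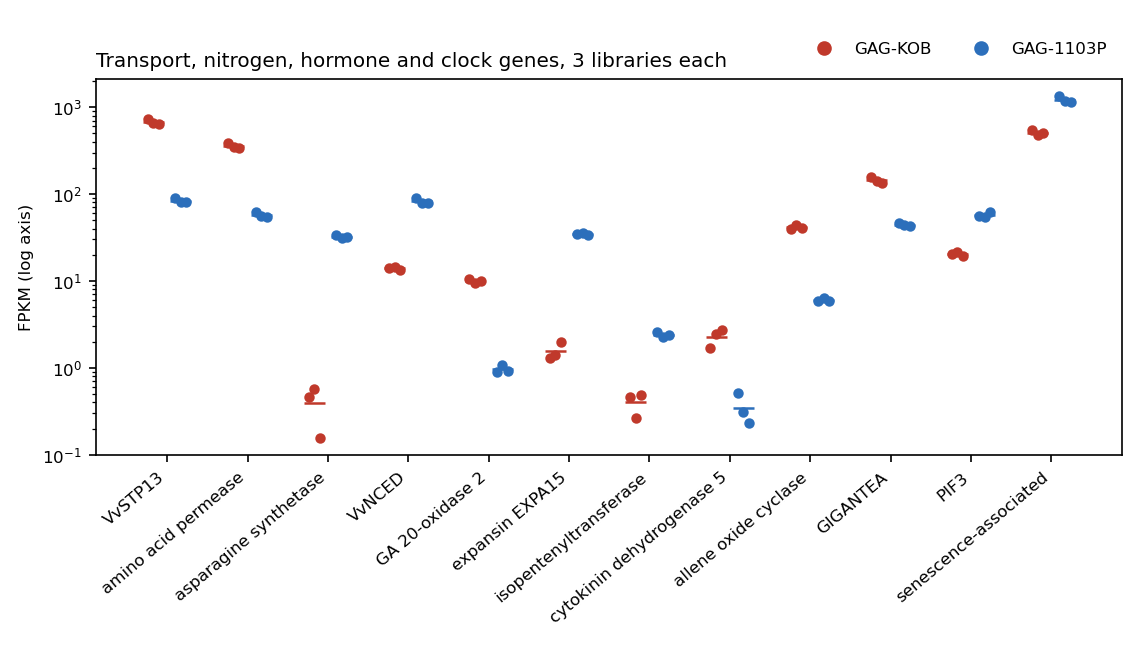
FPKM (log axis) of 12 transport, nitrogen, hormone, clock and senescence genes in the 3 GAG-KOB libraries (red) and the 3 GAG-1103P libraries (blue), with a line at each mean. Most of these genes were chosen for a lack of overlap between the 2 combinations, so that its absence here is no result. Asparagine synthetase shows the widest gap (0.156 to 0.569 FPKM in GAG-KOB, against 31.5 to 33.5 FPKM in GAG-1103P).

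Sugar genes were mostly higher, while nitrogen genes went both ways. Of 17 genes for sugar transport and cleavage, 13 were higher, and a trehalose-6-phosphate phosphatase (Vv18s0001g05300, log2FC -1.60) was lower. VvSTP13 (Vv05s0020g03140), a hexose transporter whose Arabidopsis ortholog takes up glucose, had 731, 660 and 646 FPKM in GAG-KOB, against 89.4, 80.9 and 81.8 FPKM in GAG-1103P (log2FC 3.01 ± 0.16, adjusted p = 5.58e-09, limma). Of 17 genes for nitrogen uptake and storage, 10 were higher (58.8%) and 5 lower (29.4%). These shares lay near those over the annotated genes as a whole, 59.1% and 27.7%. An amino acid permease (Vv01s0011g04210), a transporter of amino acids, had 386, 350 and 343 FPKM in GAG-KOB, against 61.9, 55.3 and 54.3 FPKM in GAG-1103P (log2FC 2.65 ± 0.068, adjusted p = 9.52e-12, limma). Asparagine synthetase (Vv06s0004g06830), which forms the transport amino acid asparagine, showed the reverse, with 0.458, 0.569 and 0.156 FPKM in GAG-KOB, against 33.5, 31.5 and 32.0 FPKM in GAG-1103P (log2FC -6.15 ± 0.32, adjusted p = 4.98e-09, limma). The ammonium transporter AMT1;2 (Vv04s0043g00370, log2FC -1.95) and the nitrate transporter NRT1:2 (Vv01s0026g01570, log2FC -1.17), which take up inorganic nitrogen, were lower too, as were 2 further amino acid permeases (Vv19s0027g01890, -0.50, and Vv19s0015g01310, -0.96).

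Galactinol synthase (Vv01s0127g00470), the first step toward raffinose sugars, had the largest decrease in mean FPKM among annotated genes lower by a log2FC of at least 1 in size. It had 1816, 1754 and 1703 FPKM in GAG-KOB, against 4009, 3619 and 3428 FPKM in GAG-1103P (log2FC -1.07 ± 0.068, adjusted p = 4.13e-08, limma). Fermentation genes had 3 of 8 members higher and 5 lower. Alcohol dehydrogenase 3 (Vv18s0001g15450), which reduces acetaldehyde, had 40.9, 42.8 and 42.9 FPKM in GAG-KOB, against 119, 130 and 123 FPKM in GAG-1103P, whereas a short-chain alcohol dehydrogenase (Vv08s0040g01200) had 4.06, 3.16 and 3.11 FPKM in GAG-KOB, against 1.02, 0.648 and 1.04 FPKM in GAG-1103P. The other decreases were alcohol dehydrogenases 1 (Vv18s0001g15410, log2FC -0.53), 2 (Vv04s0044g01130, -0.44) and 6 (Vv04s0044g01110, -0.52) and an allyl alcohol dehydrogenase (Vv05s0094g01260, -0.50), while another alcohol dehydrogenase (Vv14s0068g01760, 1.44) and lactate dehydrogenase (Vv15s0048g00640, 1.77) were higher. Cell wall genes were split, with 23 of 57 higher and 20 lower. UDP-glucose 6-dehydrogenase (Vv01s0011g00690), which supplies sugar units for wall polymers, had 274, 304 and 291 FPKM in GAG-KOB, against 53.0, 61.7 and 57.4 FPKM in GAG-1103P (log2FC 2.34 ± 0.070, adjusted p = 3.25e-11, limma). The cellulose synthase-like CSLE1 (Vv00s0469g00050) had 2.19, 2.03 and 2.59 FPKM in GAG-KOB, against 9.33, 9.17 and 10.3 FPKM in GAG-1103P. An esterase/lipase (Vv06s0080g00330) was also among the largest decreases, with 0.371, 0.200 and 0.287 FPKM in GAG-KOB, against 3.19, 3.27 and 3.61 FPKM in GAG-1103P.

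Of 15 photosynthesis genes in the annotated list, 6 were higher and 6 lower, and the list holds only genes that the study selected. Their FPKM added up to 1462, 1598 and 1542 in GAG-KOB, against 763, 740 and 730 in GAG-1103P, a ratio of 2.06. Most of that difference lay in 1 gene, ELIP1 (Vv05s0020g04110), so that the ratio does not stand for the list. The members named in the next sentences by their log2FC were chosen after their values were seen. The increases included ELIP1 (Vv05s0020g04110, log2FC 1.98), a light stress protein that averaged 935 FPKM in GAG-KOB and 237 FPKM in GAG-1103P, and 3 LHCII antenna genes (Vv10s0003g02890, 0.92, Vv10s0003g02900, 0.89, and Vv19s0014g00160, 1.91). The decreases included components of the photosystems and of electron transport, namely psbZ (Vv12s0059g01810, log2FC -1.18) and PsbP (Vv14s0060g02430, -0.98) of photosystem II, the photosystem I factor APO3 (Vv17s0000g07250, -0.76), PETC of the cytochrome b6-f complex (Vv12s0134g00510, -1.57) and a ferredoxin (Vv05s0020g03490, -0.90). Outside this list, a divinyl protochlorophyllide reductase of chlorophyll synthesis (Vv05s0020g01840, log2FC -1.36) was lower, as was PsbO. A plastocyanin domain protein (Vv11s0037g00290) had 5.66, 5.64 and 8.01 FPKM in GAG-KOB, against 0.142, 0.540 and 0.867 FPKM in GAG-1103P. A ferredoxin-like protein (Vv05s0077g00960) had 0, 0.973 and 0.344 FPKM in GAG-KOB, against 2.78, 2.41 and 2.74 FPKM in GAG-1103P. Of 12 circadian and flowering-time genes, 6 were higher and 4 lower. GIGANTEA (Vv18s0157g00020), a clock component that peaks in the evening in Arabidopsis, had 156, 139 and 135 FPKM in GAG-KOB, against 45.8, 44.1 and 43.3 FPKM in GAG-1103P (log2FC 1.69 ± 0.083, adjusted p = 3.18e-09, limma). The light-signalling factor PIF3 (Vv07s0005g02510) was lower, with 20.3, 21.6 and 19.6 FPKM in GAG-KOB, against 55.6, 55.0 and 61.5 FPKM in GAG-1103P (log2FC -1.48 ± 0.10, adjusted p = 1.02e-07, limma). Also lower were PIL6 (Vv12s0028g01110, log2FC -1.23), of the same family as PIF3, EARLY FLOWERING 4 (Vv11s0016g01370, -1.19), a clock gene, and COL2 (Vv14s0083g00640, -1.04), a CONSTANS-like gene. The time of day at which each combination was sampled is not in the labels, and its part in these values was not tested.

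Senescence genes had 9 of 15 members higher and 6 lower, in leaves that were labelled as non-senescing. The share of increases lay near the 59.1% over the annotated genes as a whole. The share of decreases lay above the 27.7% over the annotated genes. Summed over the list, the senescence genes had 1252, 1143 and 1183 FPKM in GAG-KOB, against 2149, 1995 and 1918 FPKM in GAG-1103P. Most of that difference lay in 1 senescence-associated protein (Vv15s0021g00940), with 541, 473 and 498 FPKM in GAG-KOB, against 1331, 1173 and 1139 FPKM in GAG-1103P (log2FC -1.27 ± 0.091, adjusted p = 1.19e-07, limma). A leaf senescence-related gene (Vv13s0067g01180) was higher at a low level, with 1.998, 1.58 and 1.25 FPKM in GAG-KOB, against 0.256, 0.265 and 0.532 FPKM in GAG-1103P. The part of leaf age in the other results was not tested.

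Heat shock genes had 6 of 12 members higher and 5 lower. Heat shock factor B3 (Vv08s0007g08750) had 68.2, 86.0 and 82.6 FPKM in GAG-KOB, against 9.97, 12.9 and 12.5 FPKM in GAG-1103P (log2FC 2.73 ± 0.13, adjusted p = 2.72e-09, limma). A small heat shock protein (Vv18s0089g01270), a chaperone, had 1.89, 2.29 and 1.79 FPKM in GAG-KOB, against 7.75, 9.67 and 9.97 FPKM in GAG-1103P. A further 3 small heat shock proteins (Vv06s0004g05770, log2FC -2.05; Vv09s0002g06790, -1.60; Vv12s0035g01910, -1.35) and HSP101 (Vv17s0000g07190, -0.45) were lower as well. Pentatricopeptide repeat (PPR) proteins, which process RNA in chloroplasts and mitochondria, formed the list with the largest share of decreases, with 23 of 33 lower and 4 higher and a median log2FC of -0.71. The PPR gene Vv01s0011g00660 had 1.43, 1.31 and 1.41 FPKM in GAG-KOB, against 5.13, 4.75 and 5.04 FPKM in GAG-1103P (log2FC -1.77 ± 0.14, adjusted p = 2.39e-07, limma). In the opposite direction, Vv08s0007g04970 had 5.97, 5.72 and 6.64 FPKM in GAG-KOB, against 1.52, 1.68 and 1.87 FPKM in GAG-1103P, and Vv15s0046g02180 (log2FC 1.15), Vv10s0116g00540 (0.97) and Vv09s0002g00230 (0.54) were also higher. Genes of the cuticle and epidermis, markers of the outer cell layer, had 6 of 15 members higher and 7 lower, and their sums were 295, 277 and 265 FPKM in GAG-KOB, against 383, 348 and 350 FPKM in GAG-1103P. Of its beta-ketoacyl-CoA synthases, which elongate wax precursors, Vv07s0141g00060 was higher, with 4.69, 5.02 and 4.23 FPKM in GAG-KOB, against 0.995, 0.848 and 1.02 FPKM in GAG-1103P. Vv04s0008g04710, under the same annotation, was lower, with 0.408, 0.221 and 0.217 FPKM in GAG-KOB, against 2.56, 2.16 and 2.27 FPKM in GAG-1103P. The only gene of the phloem and xylem list, PP2-B1 (Vv00s0214g00040, log2FC -0.60), was not called.

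Genes at least 4-fold higher made up 3.0% of all genes tested and a larger share of some stretches of the genome, read from the scaffold part of the identifiers. On chromosome 16, the scaffold with the prefix Vv16s0100 held 34 such genes among 85 tested, nearly all of them STS, and Vv16s0039 held 12 among 176, most of them PAL genes. On chromosome 10, Vv10s0042 held 10 among 60, among them STS and receptor kinases, and on chromosome 18, Vv18s0075 held 6 among 40, of which 4 were laccases, while Vv18s0041 held 14 among 116, among them lectin and wall-associated kinases. The shares were 40% in Vv16s0100, 16.7% in Vv10s0042, 15% in Vv18s0075 and 12.1% in Vv18s0041. The share of 6.82% in Vv16s0039 was exceeded also in Vv03s0017 (8.26%, with flavonoid glucosyltransferases and ABC transporters), Vv02s0033 (7.69%, with nitrilases and the alternative oxidase) and Vv03s0091 (7.06%). Genes that lie together and are alike in sequence are also those between which reads could be split.

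Genes with no annotation at hand gave the most extreme values. In the STS scaffold of chromosome 10, Vv10s0042g00850 had 452, 453 and 624 FPKM in the GAG-KOB libraries, while it was listed at 0 in GAG-1103P A and B and had 48.7 FPKM in GAG-1103P C. Vv01s0146g00320 had 22.2, 18.8 and 30.8 FPKM in the GAG-KOB libraries and was listed at 0 in those of GAG-1103P. Conversely, Vv00s2829g00010 was listed at 0 in all GAG-KOB libraries and had 464, 448 and 479 FPKM in GAG-1103P. Vv09s0054g01680 was also listed at 0 in GAG-KOB and had 40.7, 16.8 and 36.0 FPKM in GAG-1103P. No fold is given for these 4 genes, because a listed 0 can be a failed estimate. The call of Vv09s0054g01680 was lost without replicate A of every combination (adjusted p = 0.0934, limma).

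GAG-KOB was then set against the mean of GAG-41B, GAG-17-37 and GAG-3309C. The GAG-1103P mean has no part in this contrast, but the GAG-1103P libraries share in the estimate of the spread. By this contrast 2209 genes were higher in GAG-KOB (10.3%) and 2149 lower (10.1%). With the replicate letter as a block, 3280 were higher and 3260 lower. The total of 4358 was 2901 without GAG-KOB replicate B and 1674 with B and C averaged, and the genes lower were 1428 without GAG-KOB replicate C. The mean of the 3 combinations holds very unlike values, as the STS family shows. Its FPKM sum averaged 5668 ± 82.3 in GAG-KOB, against 55589 ± 758 in GAG-41B, 2460 ± 62.7 in GAG-17-37 and 2579 ± 119 in GAG-3309C (SD, n = 3). Of the 40 STS genes, 21 were lower in GAG-KOB than that mean and none was higher. The PR proteins were ordered differently, with sums that averaged 13788 FPKM in GAG-KOB, against 18614 in GAG-41B, 13518 in GAG-17-37 and 20845 in GAG-3309C. VvWRKY40 averaged 486 ± 30.3 FPKM in GAG-KOB, against 1807 in GAG-41B, 199 in GAG-17-37 and 309 in GAG-3309C, and was not called against their mean (log2FC 0.02, adjusted p = 0.898, limma).

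Among the 21364 genes tested, the GAG-KOB libraries lay above all 12 others for 432 genes and below them for 320. Allene oxide cyclase (Vv01s0011g03090) was among the first, since the 12 other libraries reached at most 19.1 FPKM, in GAG-41B. Its log2FC against the mean of the 3 combinations was 2.07 ± 0.098 (adjusted p = 7.38e-08, limma). An indole-3-acetic acid-amido synthetase (Vv19s0014g04690), which conjugates auxin with amino acids, had 3.02, 2.23 and 2.67 FPKM in GAG-KOB, against at most 1.26 FPKM in the 12 others (log2FC 2.68 ± 0.24 against the 3 combinations, adjusted p = 8.76e-06, limma). A polygalacturonase inhibitor protein (Vv06s0004g01750), a class of cell wall proteins that block fungal enzymes, had 2.91, 2.75 and 2.61 FPKM in GAG-KOB, against at most 0.854 FPKM in the 12 others (log2FC 1.84 ± 0.14, adjusted p = 3.05e-06, limma). Oleosin OLE-2 (Vv17s0000g09000), a protein of lipid bodies, had 2.33, 1.17 and 0.669 FPKM in GAG-KOB, against at least 2.49 FPKM in the 12 others.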

How the data were processed

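Per the labels and the methods of the study, single-end reads were base-called with CASAVA 1.8.2, aligned to the PN40024 genome with TopHat2 2.0.14 and Bowtie2 2.2.4, and Cufflinks 2.2.0 gave the FPKM that the authors deposited, under geometric normalization; the authors name DESeq 1.6.3 for their DEGs. Since FPKM are not counts, log2(FPKM + 0.1) was analyzed with limma 3.58.1 in R 4.3.3, in 1 fit over 15 libraries (0 columns left out) with a trend of the variance. Tests were two-sided with Benjamini-Hochberg adjustment over 21364 genes. Methods were tested on simulated data. The study lists the mapped reads of each library, but no counts per gene were at hand. Precision therefore rests on the replicate spread, and 3 against 3 libraries cannot give a permutation p under 0.1. Lists and members were chosen with earlier results of these data known, and the lists come from an annotation the study selected on these libraries. The PAL and STS lists were widened, after values were seen, to members under another spelling or name. The labels do not say what a letter stands for. Letters were to be paired if the deviations of same-letter libraries in GAG-KOB and GAG-1103P had Pearson's r over 0.1. The values of r were -0.002, 0.001 and 0.022 for A, B and C, so letters were not paired in the main fit. By rank, same letters deviated together over the genes tested (Spearman's rho of 0.35, 0.15 and 0.15), with A apart from B and C. However, rho was 0.18 between GAG-KOB B and GAG-1103P C, and 0.21 between GAG-KOB C and GAG-1103P B. The fit without a block was kept, with the block as an alternative. Named genes are those the paper names, the 4 largest annotated increases and decreases (at least 1 FPKM, no overlap) and the largest of each list (log2FC of at least 1 in size). Also named are the 3 largest increases and decreases in mean FPKM (log2FC of at least 1 in size), the 2 largest without annotation, and the 4 most apart from the other 12 libraries. Python 3.11.15 with pandas 2.3.3 made summaries and matplotlib 3.10.9 the plots. Alternatives were other pseudocounts, filters, scalings, limits, fits and libraries left out.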

Additional observations from a re-analysis of the deposited data

Results flagged for a closer look

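By the limma contrast of GAG-KOB with the mean of the other 3 combinations, 415 genes were called with all GAG-KOB libraries above the 12 others. A further 312 were called with all GAG-KOB libraries below them. Of these, 44 and 7 were annotated and reached 1 FPKM in the higher libraries. The 8 genes given here are the 4 largest increases and the 4 largest decreases among those 44 and 7. For them, the change of GAG-KOB against GAG-1103P differed from the mean change of the other 3 combinations. The log2 difference was 2.68 for the auxin-conjugating synthetase Vv19s0014g04690, 2.07 for allene oxide cyclase Vv01s0011g03090 and 1.84 for the polygalacturonase inhibitor Vv06s0004g01750. It was 2.18 for the alpha-expansin Vv06s0004g07970, with 1.31, 1.06 and 1.66 FPKM in GAG-KOB, against at most 0.485 FPKM in the 12 others, and its own call against GAG-1103P was lost with 0.01 added to each value (adjusted p = 0.0878, limma). Among the decreases it was -1.24 for oleosin Vv17s0000g09000, a call lost with B and C averaged (adjusted p = 0.0796). It was -0.82 for heat shock factor A6B (Vv00s0179g00150), with 4.09, 3.203 and 3.73 FPKM in GAG-KOB, against at least 4.38 FPKM in the 12 others, and -0.49 for flavin-containing monooxygenase 3 (Vv00s0233g00180). For a ribonuclease T2 (Vv00s0174g00310) it was -0.62, a call also lost with B and C averaged (adjusted p = 0.0518).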

How the results depend on the processing

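Of 171 alternative values of the counts of DEGs, 156 stayed within 1.5 times the value reported. The 4-fold DEGs were 344 with a pseudocount of 1 (306 higher and 38 lower), and the 4-fold decreases were 68 among genes averaging 1 FPKM or more. Against the mean of the other 3 combinations, the DEGs were 2022 at an adjusted p of 0.005 or less (1110 higher and 912 lower), and 1674 with B and C averaged (954 higher and 720 lower). With the replicate block the DEGs against the other 3 combinations were 6540, of which 3260 were lower, and the block raised the DEGs against GAG-1103P to 12726. Among named genes, the block changed only the calls of VvUBI and Vv00s0174g00310 against GAG-1103P. Leaving out 1 library at a time gave 10169 to 10431 DEGs, 747 to 776 of them 4-fold, and, against the other 3 combinations, 2901 to 4356 DEGs, of which 1393 to 2139 were lower. Without replicate A of every combination, chosen after seeing the data, the DEGs were 11741. No named gene changed direction under any alternative run, and beside the calls named in the report, that of Vv00s0179g00150 against GAG-1103P was lost without GAG-KOB replicate B (adjusted p = 0.0531, limma) and with B and C averaged (0.123). Vv00s0174g00310, not called against GAG-1103P (adjusted p = 0.123), was called after scaling to the same total (0.0472) and with the replicate block (0.0326). The scalings moved the median log2FC by -0.08 to 0.04.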

Other observations

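The annotated genes also fall into functional categories. Transport had 167 of 242 genes higher in GAG-KOB than in GAG-1103P and 48 lower, with a median log2FC of 1.29. Lipid metabolism had 49 of 77 genes higher (63.6%) and 25 lower (32.5%), and cellular homeostasis had 57 of 94 higher (60.6%) and 25 lower (26.6%). Both lay near the shares over the annotated genes as a whole, 59.1% higher and 27.7% lower. Over all genes tested the shares were 26.9% and 25.7%. DNA and RNA metabolism was the category besides the PPR proteins with more decreases than increases, with 40 of 81 genes lower and 33 higher and a median log2FC of -0.57. Cell wall metabolism had 22 of 59 genes higher and 22 lower. The categories were assigned to genes selected on these libraries, and none of these counts is a test.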
